A study of Mus musculus with 96 samples.

Results

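The cytochrome P450 enzymes of families 1 to 4 were followed in the mouse, from normal liver through liver tumours and their metastases to organoids. The set holds every gene row whose symbol begins with Cyp1, Cyp2, Cyp3 or Cyp4 and a subfamily letter, without the 7 rows named as pseudogenes. These were 77 of the 34591 gene symbols in the deposited tables, in 22 subfamilies. They were chosen by symbol and not by a measured value, but earlier results of these data were known. RNA of 96 libraries in 14 groups was sequenced as stranded total RNA, and per the labels nothing was treated. Tissue was dissected and organoids, which are 3D cultures of liver cells, were grown in stem cell culture. The tissue groups were normal liver (n = 6), PPTR primary tumours (n = 11) and their metastases (n = 5: 3 abdominal sites in the intestine and peritoneum, 1 in the lung and 1 within the liver), and PNR primary tumours (n = 9). LCS-driven tumours were taken as primary tumours (n = 10), lung metastases (n = 5) and peritoneal metastases (n = 3), HBS1-driven tumours as primary tumours (n = 2), and HBS1_F2-driven tumours as primary tumours (n = 2) and peritoneal metastases (n = 3). The organoid groups were normal organoids (n = 6), 5 LCS cancer lines (19 libraries), 6 HBS cancer lines (11 libraries) and the HBS1_F2 line (n = 4). The labels do not expand PPTR, PNR, LCS, HBS or F2, and they do not say how the driven tumours, which carry the name of an organoid line, were made. Genotype, strain, age and the animal behind each library are not in the labels either. The p-values below are therefore about the spread among libraries of a group, part of which may be technical.

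Cytochrome P450s are haem enzymes of the endoplasmic reticulum that insert an oxygen atom into their substrates, with electrons passed on by the reductase Por. Families 1 to 3 act mainly on drugs, toxins, steroids and bile acids, and family 4 mainly on fatty acids and eicosanoids. Most are made in hepatocytes, where many follow the position of the cell along the liver lobule, the sex of the mouse through the pattern of growth hormone, and the nuclear receptors Hnf4a, CAR (Nr1i3), PXR (Nr1i2) and PPARA. Others, such as Cyp1b1 and Cyp2s1, are known mainly outside hepatocytes and respond to the aryl hydrocarbon receptor (AHR).

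Promoters are shown for 6 members: 2 targets of AHR, a Cyp3a pair called in opposite directions in PNR tumours, and 2 members of the Cyp2c cluster. Of the AHR targets, Cyp1a1 was low throughout, with a highest group mean of 3.326 CPM. Each is the strand of the gene from 250 bases before its start to 50 after it, from RefSeq on GRCm38.p6, 5′ to 3′. Capitals mark every match, on either strand, of GCGTG, the core bound by AHR, in Cyp1a1, Cyp1b1 and Cyp2c68. They also mark TATAAA in Cyp1a1, Cyp3a11, Cyp3a16 and Cyp2c70, and CAAAGTCCA, a form of the repeat bound by HNF4, in the Cyp3a and Cyp2c genes.
Cyp1a1 (chr9:57697363-57697662, plus strand): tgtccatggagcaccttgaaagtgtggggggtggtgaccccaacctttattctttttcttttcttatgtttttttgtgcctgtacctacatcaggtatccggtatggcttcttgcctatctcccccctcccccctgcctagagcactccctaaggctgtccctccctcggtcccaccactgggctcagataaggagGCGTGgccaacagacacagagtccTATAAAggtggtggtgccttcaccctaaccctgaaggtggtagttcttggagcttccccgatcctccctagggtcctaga
Cyp1b1 (chr17:79715012-79715311, minus strand): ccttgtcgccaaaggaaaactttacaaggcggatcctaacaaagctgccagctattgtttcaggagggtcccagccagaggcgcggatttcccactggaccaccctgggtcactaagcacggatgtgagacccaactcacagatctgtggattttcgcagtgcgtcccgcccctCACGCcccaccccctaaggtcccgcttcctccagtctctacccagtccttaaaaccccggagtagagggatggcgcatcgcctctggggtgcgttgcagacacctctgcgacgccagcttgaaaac
Cyp3a11 (chr5:145879805-145880104, minus strand): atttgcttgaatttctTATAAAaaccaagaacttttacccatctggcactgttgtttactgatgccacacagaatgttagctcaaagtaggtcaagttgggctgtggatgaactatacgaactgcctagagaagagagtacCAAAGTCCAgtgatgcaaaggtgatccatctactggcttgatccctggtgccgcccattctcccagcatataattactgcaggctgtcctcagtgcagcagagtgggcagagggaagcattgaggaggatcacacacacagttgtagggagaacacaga
Cyp3a16 (chr5:145469674-145469973, minus strand): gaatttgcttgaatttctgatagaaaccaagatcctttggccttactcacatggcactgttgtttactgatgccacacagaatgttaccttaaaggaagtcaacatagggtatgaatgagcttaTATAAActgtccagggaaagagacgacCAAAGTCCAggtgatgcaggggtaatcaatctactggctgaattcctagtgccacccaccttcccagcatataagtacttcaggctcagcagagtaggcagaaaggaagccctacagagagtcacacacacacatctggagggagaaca
Cyp2c68 (chr19:39741052-39741351, minus strand): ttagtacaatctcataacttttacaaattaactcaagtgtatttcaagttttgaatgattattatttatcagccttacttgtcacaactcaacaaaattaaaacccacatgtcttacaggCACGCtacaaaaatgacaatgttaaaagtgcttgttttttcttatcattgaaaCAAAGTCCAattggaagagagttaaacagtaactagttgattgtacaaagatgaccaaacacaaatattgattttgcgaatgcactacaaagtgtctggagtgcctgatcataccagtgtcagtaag
Cyp2c70 (chr19:40187237-40187536, minus strand): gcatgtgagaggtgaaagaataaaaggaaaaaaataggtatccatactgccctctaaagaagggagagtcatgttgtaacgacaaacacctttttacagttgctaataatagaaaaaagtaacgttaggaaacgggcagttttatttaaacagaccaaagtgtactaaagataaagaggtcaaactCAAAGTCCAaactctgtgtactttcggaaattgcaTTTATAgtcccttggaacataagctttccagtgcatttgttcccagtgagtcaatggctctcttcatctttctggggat

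Promoters were matched for 63 of the 77 members, and both strands were searched. The letters CAAAGTCCA stood in 10 of these 63 windows (15.9%), against 129 of 27025 promoters of the same length in the whole table (0.477%). The 10 were 6 Cyp2c and 4 Cyp3a members of the clusters on chromosomes 19 and 5, so they share ancestry as well as letters. TATAAA stood in 44.4% of members' windows against 14.2% of all, and GCGTG in 22.2% against 32.5%. The motif TTGCNNAA, the core of C/EBP sites, was in 23.8% against 10.8%, GTTAAT (part of the HNF1 site) in 12.7% against 7.2%, and CCAAT in 46% against 37.9%. The member promoters held few CpG pairs, with a median ratio of observed to expected CpG of 0.137 against 0.389 over all promoters. A match of letters describes the window and is not evidence of a bound site.

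Library depth was 4393199 to 87058563 gene counts. Levels are given as CPM, the counts of a gene scaled to the library's gene total, and between genes only per kilobase of exon (CPM per kb). Hepatocyte markers (Alb, Ttr, Apoa1, Apoa2, Serpina1c, Tat and Cps1) summed to 38980 to 65430 CPM in normal liver and to 25260 to 102700 in PPTR, 8418 to 25660 in PNR and 657.3 to 43100 in LCS-driven primary tumours, so the last spanned a wide range of hepatocyte RNA. In normal organoids the same sum was 0.3552 to 37.83 CPM, with Apoa2, Serpina1c and Tat under 1 CPM in every library, and biliary markers summed to 2271 to 4257 CPM against 33.73 to 89.62 in liver. Normal livers held more ribosomal-repeat counts, at 10.67 to 25.9% of the library, than PNR (0.9189 to 2.068%) and LCS-driven primary tumours (0.1464 to 6.213%) or normal organoids (0.255 to 0.6902%), and PPTR tumours reached 18.39%. Among the 9 PNR libraries, replicates 2 and 3, replicates 4, 5 and 6, and replicates 7 and 9 matched so closely that they made 5 sets with the single libraries 1 and 8. The cutoff was an SD of log2 ratios of 0.35, over genes averaging at least 10 CPM. Replicate 1 was just outside it, at 0.3925 and 0.4937 to replicates 2 and 3, with its other pairs at 0.8775 or more. In bulk RNA, fewer cells of a type and less RNA per cell cannot be told apart.

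In each comparison a member was called at a Benjamini-Hochberg adjusted p under 0.05 in edgeR's quasi-likelihood test, fitted over all genes, and a gene is said to rise or fall only when it was called. Fitted changes are log2 values ± standard error. They are relative to a scaling (TMM) that centres most genes: with plain library totals the median of all genes moved to 0.50 in PPTR, 0.68 in PNR and 1.17 in LCS-driven primary tumours against liver, 0.63 in LCS-driven against PPTR tumours, 0.98 in normal organoids against liver, 0.40 in LCS-driven tumours against LCS lines and 0.41 in PPTR metastases against primary tumours. It moved to −0.11 in PPTR against PNR tumours and −0.16 in LCS peritoneal metastases, and by under 0.1 in the other 3 comparisons.

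Normal liver had the highest summed level of the set, and every other group was lower on average. The 77 members summed to 16890 ± 4863 CPM (SD, n = 6) in normal liver, or 1.69% of all counts, with libraries from 10450 to 23960. PPTR primary tumours summed to 11440 ± 5361 CPM (n = 11), PNR tumours to 7787 ± 4030 (n = 9) and LCS-driven primary tumours to 2843 ± 2269 (n = 10). Both PPTR and PNR libraries overlapped those of liver, and no LCS-driven library reached the lowest liver. HBS1-driven primaries held 2927 and 3795 CPM, HBS1_F2-driven primaries 2271 and 2539, and HBS1_F2-driven metastases 1316 to 3365. PPTR metastases summed to 3481 ± 1640 CPM (n = 5), LCS lung metastases to 1276 ± 342.4 (n = 5) and LCS peritoneal metastases to 570.9 ± 90.38 (n = 3). Normal organoids summed to 446.2 ± 214.7 CPM (n = 6), which is 0.0446% of counts, LCS organoids to 856.9 ± 823.1 (19 libraries), HBS organoids to 458.6 ± 156 (11 libraries) and HBS1_F2 organoids to 886.1 ± 434.7 (n = 4). A group mean of at least 5 CPM was reached by 51 members in liver, 49 in PPTR, 47 in PNR and 44 in LCS-driven primary tumours, and by 29 and 27 in HBS1-driven and HBS1_F2-driven primaries. It was reached by 34 in PPTR, 31 in HBS1_F2-driven, 24 in LCS lung and 19 in LCS peritoneal metastases, and by 13, 17, 13 and 14 in normal, LCS, HBS and HBS1_F2 organoids.

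**Figure D1:**
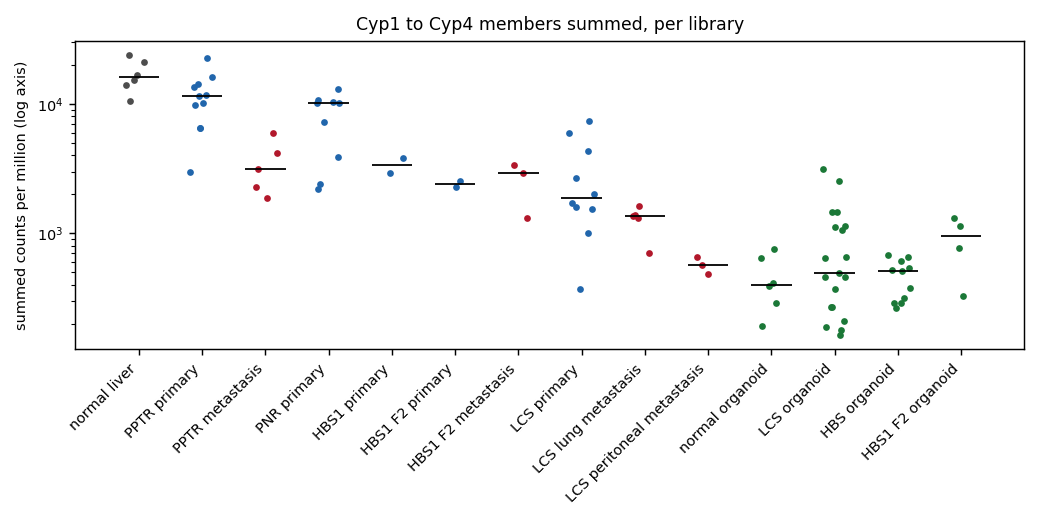
Summed CPM of the 77 members (log axis) in each of the 96 libraries by group, with a line at the group median. Normal livers sit between 10450 and 23960 CPM, LCS-driven primary tumours spread from 373.3 to 7320, and normal organoids lie between 190.6 and 760.

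The make-up of the set differed between groups as well as its sum. Per kb, the Cyp2c subfamily held 27% of the liver level, Cyp2e (the single gene Cyp2e1, which oxidises ethanol and paracetamol) 21.7%, Cyp3a 17% and Cyp2a 9.57%. The 3 highest single members of liver were Cyp2e1 at 1482 CPM per kb, Cyp3a11 (the main Cyp3a enzyme of adult mouse liver) at 654.9 and Cyp2a5 (a coumarin hydroxylase) at 378.8. PPTR primary tumours had Cyp2a as their largest subfamily (31.6%), led by Cyp2a4 (a testosterone hydroxylase) at 845.8 CPM per kb. In PNR tumours Cyp2e1 led with 1320 CPM per kb, 32.9% of the set, before Cyp2d (22.1%) and Cyp2c (17.3%), and in LCS-driven primary tumours Cyp3a (21%) and Cyp2c (20.6%) shared the first place. HBS1-driven, HBS1_F2-driven primaries and HBS1_F2-driven metastases were led by Cyp2a at 37.3, 30.3 and 26.7%. Away from the liver and in culture other subfamilies led: Cyp4f and Cyp2d in LCS lung metastases (24.2 and 23.8%), Cyp3a, in the form of Cyp3a13, in normal organoids (22.6%), Cyp2d in LCS organoids (28.8%), and Cyp1b in HBS (21%) and HBS1_F2 organoids (41.1%).

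Of the 77 members, 25 had their highest group mean in normal liver, 13 in PPTR primary tumours, 7 in PNR tumours and 10 in LCS lung metastases, counting those with at least 5 CPM there. The 13 of PPTR tumours included Cyp2a4, Cyp2a5, Cyp2a12, Cyp2f2, Cyp2d9, Cyp3a41a and Cyp4a12a, and the 7 of PNR tumours included Cyp1a2, Cyp2c68, Cyp2d26, Cyp3a16 and Cyp4f15. The 10 of LCS lung metastases were Cyp2b10, Cyp2c65, Cyp2d12, Cyp2d34, Cyp2j6, Cyp2s1, Cyp4f14, Cyp4f16, Cyp4f18 and Cyp4f40. Only Cyp2d10, Cyp2d22, Cyp2j6 (an arachidonic acid epoxygenase), Cyp3a13, Cyp4f13 and Cyp4v3 (a fatty acid hydroxylase) had a mean of 5 CPM or more in all 14 groups. Some of these means rested on few libraries. The medians of Cyp2d10 and Cyp2d22 were 1.312 and 1.939 CPM in normal organoids. In HBS1_F2 organoids those of Cyp2d10 and Cyp3a13 were 1.373 and 3.259. 16 members never reached 5 CPM in a group mean, among them Cyp1a1, Cyp2w1, Cyp2ab1 and Cyp4x1, and 9 of these never reached 1 CPM. 8 members were too low to be tested in any comparison.

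**Figure D2:**
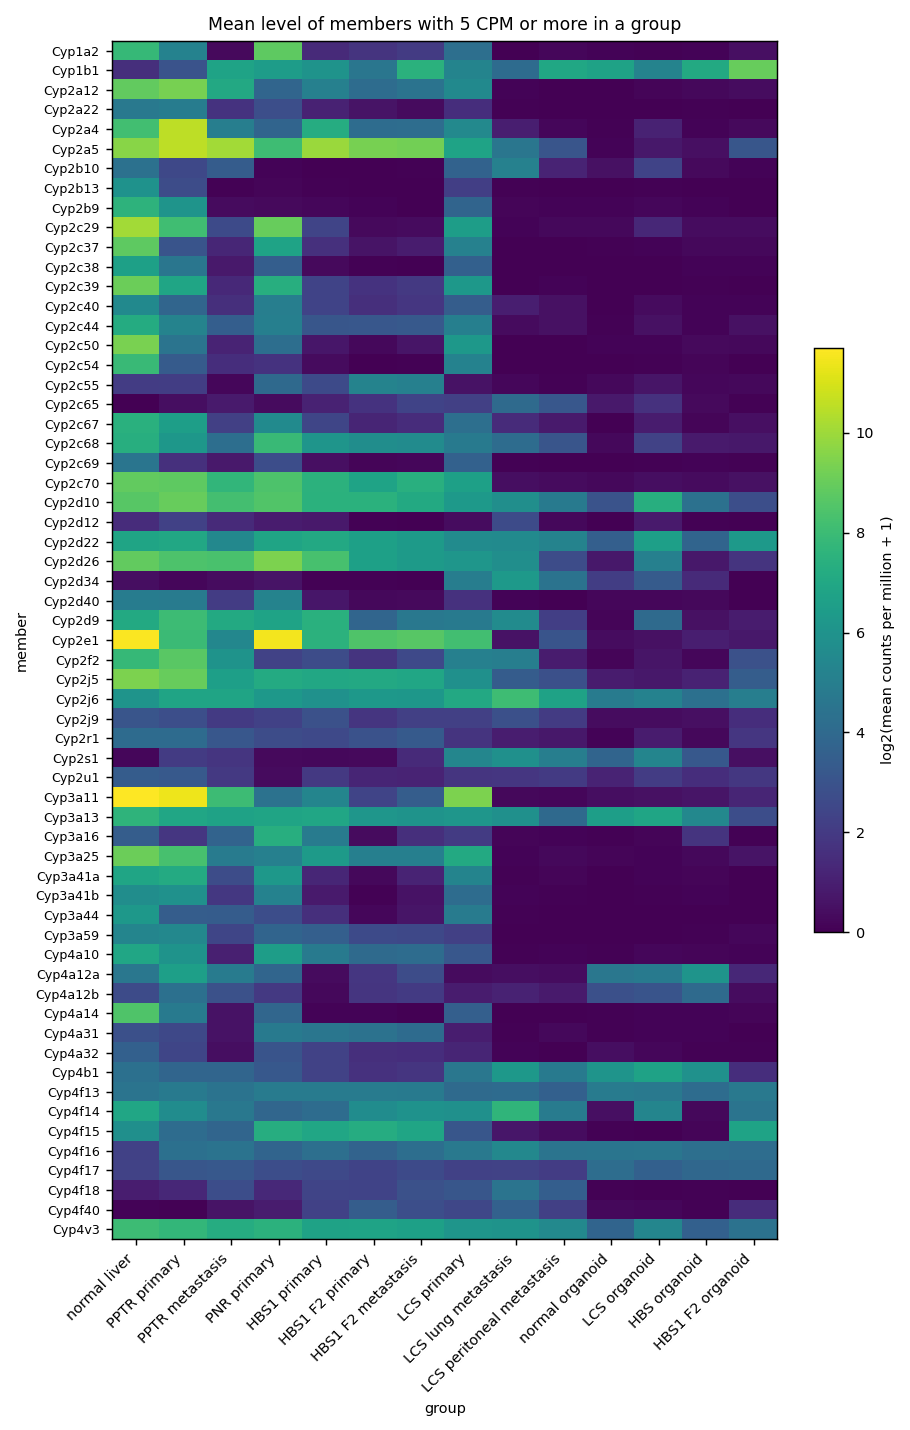
Mean level, as log2(CPM + 1), of every member with at least 5 CPM in a group mean (rows, by subfamily) in the 14 groups (columns). Most Cyp2c, Cyp2a and Cyp3a rows are high in liver and PPTR primary tumours and near 0 in organoids. Cyp1b1, Cyp2s1, Cyp3a13, Cyp4b1 and parts of Cyp2d and Cyp4f have means of at least 5 CPM in normal organoids.

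PPTR primary tumours had lower levels of 6 of 7 hepatocyte P450s listed as pericentral, that is, known to be made around the central vein. Most Cyp2c members tested were also lower, while Cyp2a4, Cyp2a5, Cyp2f2 and Cyp3a11 were not called. Of 63 members tested against liver, 25 fell (39.7%) and 2 rose, where 13.8% of all genes tested were called lower and 17.3% higher. The median change was −0.83 over members and 0.03 over all genes. With plain library totals 19 members fell and 7 rose, a split that then rests on a median of all genes of 0.50.

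Of the 7 pericentral members listed, 6 fell. Cyp2e1 measured 2390, 2548 and 5103 CPM (lowest, median and highest of 6) in liver and 3.79, 127 and 1197 in PPTR tumours, so no library of the groups overlapped, and it fell by 4.19 ± 0.90 (edgeR quasi-likelihood, adjusted p = 0.0022). Cyp2c37, Cyp2c50 and Cyp2c54, neighbouring arachidonic acid epoxygenases on chromosome 19, fell by 6.32 ± 1.02, 5.39 ± 1.01 and 5.22 ± 1.13, again with no overlap. Cyp2c37 was 167 to 886 CPM in liver and 0.0657 to 40.7 in the tumours. Cyp1a2, the caffeine-metabolising enzyme of hepatocytes, fell by 3.14 ± 0.61 (228 against 35 mean CPM), and Cyp2c29 fell by 2.58 ± 0.68. The exception was Cyp2a5, whose change was 0.43 ± 0.88 with an adjusted p of 0.74 in edgeR's quasi-likelihood test. Its libraries ran from 38.8 to 5140 CPM in the tumours and from 70 to 1400 in liver.

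Members outside the pericentral list did not move as a block. The Cyp2c subfamily, only part of which is on that list, had 10 of 13 tested members lower and 0 higher. Its median change was −2.49. Cyp3a11 ran from 373 to 5063 CPM in PPTR tumours and from 1210 to 5619 in liver, with a change of −0.76 ± 0.50. Cyp2f2, the periportal member of the set, which activates naphthalene, reached 828 CPM and had a change of 0.29 ± 0.72. Neither was called, nor was Cyp2a4 at 2.05 ± 0.98 (1470 against 281 mean CPM, adjusted p = 0.12 in the same test). The fatty acid hydroxylase Cyp4a14, a PPARA target, fell from a mean of 356 to 27.4 CPM (edgeR quasi-likelihood, adjusted p = 0.0097), and the female-biased Cyp2b13 fell by 3.86 ± 0.89. Cyp4f15 fell by 2.22 ± 0.32, from 33.2 to 68 CPM in liver to 5.54 to 37.9 in tumours, with 1 tumour above the lowest liver. The 2 members that rose were Cyp4f16, from 1.35 to 6.65 CPM in liver to 11.8 to 29.7 in tumours (1.84 ± 0.29), and the low Cyp3a57, at 1.09 to 10.6 against at most 0.24 CPM (4.42 ± 0.68), the latter named after its values were seen. In the same comparison 3 of 7 hepatocyte and 2 of 4 Kupffer cell markers were lower, and 1 of 5 biliary, 3 of 5 fibroblast and 2 of 3 intestinal epithelium markers tested were higher; their part in the result was not tested. With the ribosomal-repeat share as a term, 15 members fell in place of 25.

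PNR primary tumours had far lower levels of Cyp2b, Cyp3a11, Cyp2f2 and Cyp2a12 than liver, while Cyp2e1 was not called. Of 61 members tested against liver, 26 fell (42.6%) and 4 rose, where 21.3% of all genes were called lower and 26.4% higher, and the median change was −1.58 over members and 0.11 over all genes. Cyp3a11 stood at 1.44, 8.83 and 91.1 CPM (lowest, median and highest of 9) where no liver was under 1210, and it fell by 7.94 ± 0.96 (edgeR quasi-likelihood, adjusted p = 1.8e-05). The Cyp2b genes, which respond to CAR, went furthest: the changes were −10.14 ± 0.58 for Cyp2b9, −9.26 ± 0.94 for Cyp2b13 and −8.35 ± 0.67 for Cyp2b10. No PNR library held more than 0.444 CPM of any of them, and no liver held less than 1.67. Cyp2f2 fell by 6.50 ± 0.88, to 0.247 to 9.55 CPM, and Cyp2a12, a bile acid hydroxylase, by 5.77 ± 0.64, to 1.04 to 29.4 CPM. Cyp2c54 fell by 7.37 ± 0.80 and Cyp2c50 by 5.75 ± 0.96, both pericentral, and they were the only 2 of the 7 pericentral members called.

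The other pericentral members were not called in PNR tumours and varied between libraries, though the median change over the 7 listed was −2.07. Cyp2c29, Cyp2c37 and Cyp2a5 averaged 513, 110.6 and 270.2 CPM, against 1084, 439.8 and 785.3 in liver. Cyp2e1 ran from 369 to 4652 CPM with a median of 3518, and its change of −0.77 ± 0.54 was not called. Cyp1a2 stood at 553 to 812 CPM in replicates 1 to 6, at 88.7 in replicate 8 and at 0.198 and 0.246 in replicates 7 and 9. The 6 high libraries lie above every liver (70.8 to 342 CPM), but replicates 2 and 3 match closely, as do 4, 5 and 6. The closely matching pair 7 and 9 lies far below every liver. The fitted change of Cyp1a2 was 0.46 ± 1.05 with an adjusted p of 0.73 (edgeR quasi-likelihood).

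Members that rose in PNR tumours were Cyp1b1, Cyp3a16, Cyp4f15 and Cyp4f16. Cyp1b1, which metabolises oestradiol and is little made by hepatocytes, was 2.78, 46.3 and 498 CPM (lowest, median, highest) against 0.51 to 5.93 in liver, and rose by 4.98 ± 1.12. Cyp3a16, known from fetal and newborn mouse liver, rose by 3.38 ± 1.22, from 0.24 to 35.5 CPM to 2.83 to 354; its adjusted p of 0.031 (edgeR quasi-likelihood) became 0.107 with the matching libraries summed and 0.051 with Ddx3y RNA as a term. Cyp4f15 rose by 0.95 ± 0.21 with 108 to 217 CPM, above every liver. The 4 Kupffer cell, 4 of 7 hepatocyte and 2 of 5 fibroblast markers were lower in PNR tumours, and 2 of 5 biliary, 2 of 5 fibroblast and 1 of 3 intestinal epithelium markers higher; their part in the result was not tested. Because ribosomal-repeat shares of liver and PNR libraries do not overlap, that share and the group cannot be told apart, and with it as a term 0 members were called and the fitted change of Cyp1b1 turned to −9.82.

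**Figure D3:**
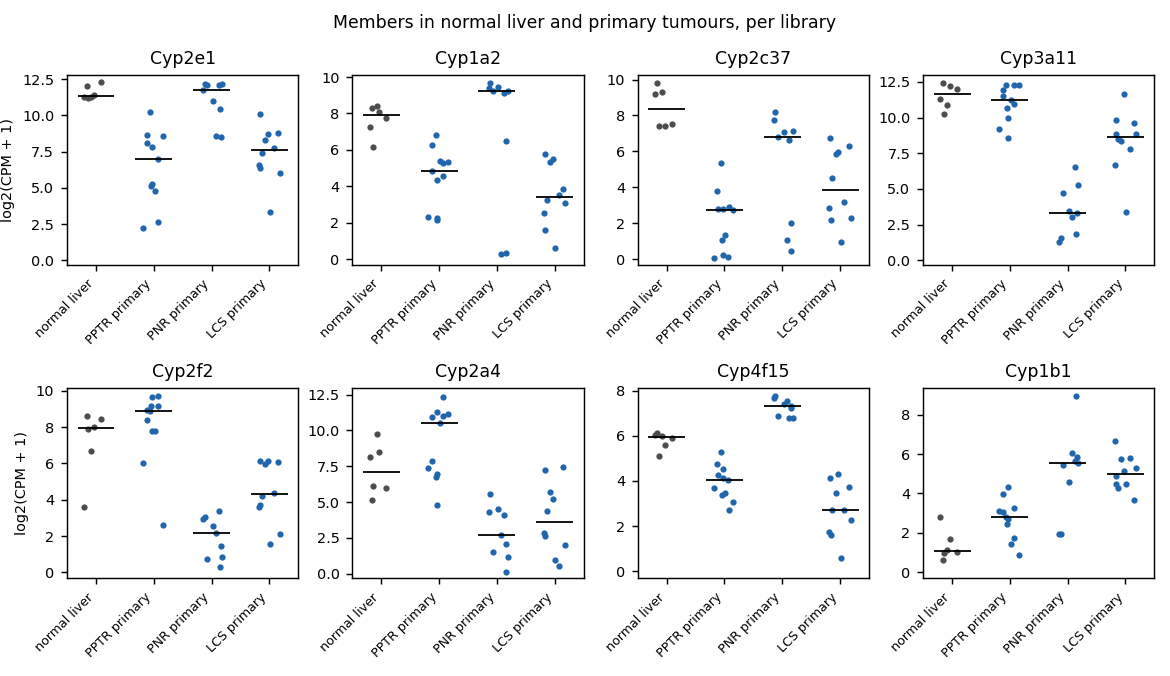
Level of 8 members, as log2(CPM + 1), in each library of normal liver and of PPTR, PNR and LCS-driven primary tumours, with a line at the group median. Cyp2e1 is high in liver and most PNR libraries and low in PPTR and LCS-driven tumours, and Cyp3a11 is high in liver and PPTR and at 1.44 to 91.1 CPM in PNR tumours.

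Set directly against each other, PPTR and PNR tumours differed in opposite directions for different members, also within the Cyp3a subfamily. In PPTR tumours 21 of 61 members were higher and 11 lower, where 24.2 and 26.5% of all genes were called, with a median of 0.64 over members and −0.03 over all genes. The higher members were led by Cyp2b9 (8.14 ± 1.10), Cyp3a11 (7.17 ± 0.90), Cyp2a4 (6.86 ± 1.19), Cyp2f2 (6.78 ± 0.86) and Cyp2a12 (5.70 ± 0.51). Cyp2a12 spanned 206 to 1052 CPM in PPTR tumours, and no PNR library exceeded 29.4. The lower ones were led by Cyp3a16 (−5.87 ± 1.02), Cyp2c37 (−3.84 ± 1.09), Cyp1a2 (−3.60 ± 0.96), Cyp1b1 (−3.56 ± 0.75) and Cyp2e1 (−3.41 ± 0.85). Cyp4f15 was also lower, at −3.17 ± 0.31 with no overlap (edgeR quasi-likelihood, adjusted p = 1.6e-07). All 4 Kupffer cell, 3 of 5 fibroblast, 1 of 7 hepatocyte and 1 of 3 intestinal epithelium markers were higher in PPTR tumours, and 1 of 7 hepatocyte and 1 of 5 biliary markers lower; their part in the result was not tested.

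LCS-driven primary tumours had lower levels of most of the set and higher levels of 7 members, among them Cyp2s1 and Cyp1b1. Of 64 members tested against liver, 49 fell (76.6%) and 7 rose, where 28.3% of all genes were called lower and 35.1% higher, and the median change was −3.53 over members and 0.13 over all genes. All 7 pericentral members, the 4 PPARA-induced Cyp4a members and Cyp2f2 fell. Cyp2e1 was 9.26, 193 and 1075 CPM (lowest, median, highest of 10), under every liver, and fell by 4.56 ± 0.72 (edgeR quasi-likelihood, adjusted p = 4e-05). Cyp3a11 fell by 3.32 ± 0.78, from 9.35 to 3154 CPM in the tumours, so that its upper libraries overlapped liver. Cyp4a14 and Cyp4a10 fell by 5.82 ± 1.20 and 4.79 ± 0.94, and Cyp1a2 by 4.64 ± 0.75 with no overlap. In the same libraries all 7 hepatocyte, all 4 Kupffer cell and 1 of 5 intestinal epithelium markers were lower, and all 5 biliary, 4 of 5 fibroblast and 4 of 5 intestinal epithelium markers higher. Intestinal epithelium markers summed to 159.7 to 2197 CPM, against 27.91 to 78.98 in liver; their part in the result was not tested. With the ribosomal-repeat share, which does not overlap between these groups, as a term, 3 members fell and 5 rose.

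Of the 7 that rose in LCS-driven primary tumours, Cyp4f16 was the highest in liver, at 1.35 to 6.65 CPM. Cyp2s1, an epithelial P450 regulated by AHR, was 5.44 to 106 CPM (median 26.2) against at most 0.404 in liver, and rose by 7.01 ± 0.87 (edgeR quasi-likelihood, adjusted p = 3.7e-06). Cyp1b1 rose by 3.31 ± 0.54, with 11.7 to 101 CPM above every liver. Cyp2d34 reached 72.4 CPM against at most 0.485 in liver, with its lowest tumour library at 0.274, and rose by 5.30 ± 1.17. Cyp4f18, known from mouse neutrophils, and Cyp4f16 rose by 2.11 ± 0.39 and 1.69 ± 0.25. The low members Cyp2c65, an intestinal epoxygenase, and Cyp4f40 completed the 7, at 0.795 to 8.4 and 0.487 to 11.1 CPM, and were named after their values were seen.

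Against PPTR tumours, LCS-driven primaries had 36 of 65 members lower and 6 higher, where 28 and 28.6% of all genes were called. The lower ones included Cyp4a12a (−9.02 ± 0.85), Cyp2a4 (−5.56 ± 1.17) and Cyp2a12 (−4.36 ± 0.79), and the 6 higher ones were Cyp2d34, Cyp4f40, Cyp2s1, Cyp2c65, Cyp4f18 and Cyp1b1, from 7.12 ± 0.91 for Cyp2d34 to 1.83 ± 0.44 for Cyp1b1. The median change was −1.87 over members and 0.02 over all genes, and with plain library totals 32 were lower and 10 higher. In LCS-driven tumours 5 of 7 hepatocyte, 1 of 4 Kupffer cell and 1 of 3 intestinal epithelium markers were lower, and 4 of 5 biliary, all 5 fibroblast, 1 of 4 Kupffer cell and 2 of 3 intestinal epithelium markers higher, and the 1 lung epithelium marker tested was lower; their part in the result was not tested. The comparisons with liver share its 6 libraries, and those with LCS-driven primary tumours share these 10, so their changes are not independent of each other.

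HBS1-driven and HBS1_F2-driven tumours had too few libraries for a planned test and are described by their values. Cyp2a5 had the highest mean CPM per kb in each of these groups. It held 791 and 1170 CPM in HBS1-driven primaries, 723.3 and 553.6 in HBS1_F2-driven primaries, and 829.9, 750.3 and 199.5 in HBS1_F2-driven metastases. Cyp4f15 was 84.04 to 164.2 CPM in all 7, above every liver at 33.2 to 68, as it was in PNR tumours. Cyp2e1 lay between 110 and 611.6 CPM in these libraries, under the lowest liver at 2390. Cyp2c55, which phenobarbital induces, had its highest group mean of the series in HBS1_F2-driven primaries, with 29.55 and 44.38 CPM.

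Sex-dependent members were read beside the sex-linked RNAs Xist and Ddx3y (at least 1 CPM). Normal liver had 3 libraries with Ddx3y only and 3 with Xist only, PPTR primary tumours 2 and 8 and 1 with both, PNR tumours 4 and 5, and all LCS-driven, HBS1-driven and HBS1_F2-driven tumours Xist only. Cyp4a12a, a male-biased hydroxylase of arachidonic acid, was 42.5 to 55.1 CPM in livers with Ddx3y and 0 to 0.162 in those with Xist. PPTR tumours with Xist nevertheless held 6.43 to 201 CPM (median 31.7, n = 8), all above every Xist liver, and the pair with Ddx3y held 198 and 306. PNR tumours with Xist held at most 0.0885 CPM. The level in LCS-driven primaries, 0.0313 to 0.53 CPM, fell by 7.57 ± 1.15 against all livers, and with Ddx3y RNA as a term this turned to 0.82.

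Cyp2d9, the male-biased testosterone hydroxylase, followed the same order in liver, at 205 to 303 CPM with Ddx3y and 14.2 to 27.4 with Xist, and PPTR tumours with Xist held 54.6 to 491. The female-biased Cyp3a41a reached 289 and 406 CPM in 2 of 3 Xist livers and 3.17 in the third, where Ddx3y livers held 0.952 to 10. In PNR tumours this turned round, with a median of 202 CPM in the 4 libraries with Ddx3y and 1.71 in the 5 with Xist; the 3 high libraries, replicates 4 to 6, are a closely matching set, and the remaining Ddx3y library held 0.467. Cyp2a4, also female-biased, was 123 to 5270 CPM in PPTR tumours with Xist and 27.2 and 107 in those with Ddx3y. Cyp2b9 was 97.3 to 134 CPM in Ddx3y livers and 126 to 336 in Xist livers. Of the 8 female-biased members listed, 3 fell in PPTR tumours, 5 fell and 1 rose in PNR tumours, and 3 fell in LCS-driven primaries. Among all genes tested, 13.8% were called lower in PPTR tumours, 21.3% lower and 26.4% higher in PNR tumours, and 28.3% lower in LCS-driven primaries. Cyp3a41a shares 93.7% of its 50-base stretches with Cyp3a41b, and Cyp4a12a 48.9% with Cyp4a12b, so their separate values are uncertain, as are those of Cyp2a4 and Cyp2a5 (36.1 and 31% shared) and Cyp2d10 (37.1%). The groups by sex-linked RNA are descriptive and were not tested.

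**Figure D4:**
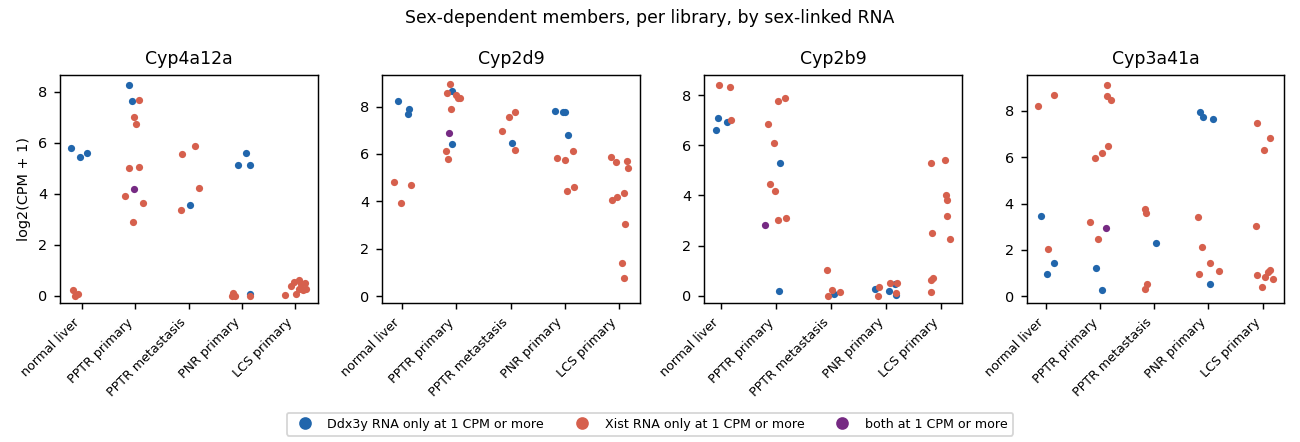
Level of Cyp4a12a, Cyp2d9, Cyp2b9 and Cyp3a41a, as log2(CPM + 1), in each library of 5 tissue groups, marked by which of the sex-linked RNAs Ddx3y and Xist it held. Cyp4a12a separates the 3 livers with Ddx3y (42.5 to 55.1 CPM) from the 3 with Xist (0 to 0.162), while PPTR tumours with Xist hold 6.43 to 201.

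Organoids from normal liver held little of the P450s that are abundant in liver. Of 56 members tested against liver, 45 fell (80.4%) and 5 rose, where 36% of all genes were called lower and 38.1% higher, and the median change was −10.98 over members and 0.07 over all genes. Cyp3a11 was 0 to 1.09 CPM in organoids against 1210 to 5619 in liver and fell by 14.06 ± 1.10 (edgeR quasi-likelihood, adjusted p = 5.4e-08), and Cyp2e1 was at most 1.01 CPM and fell by 14.25 ± 1.14. All 7 pericentral members, the 6 tested female-biased members and the 4 PPARA-induced Cyp4a members fell. The smallest losses were those of Cyp3a13 (37.5 to 196 CPM in organoids, −1.94 ± 0.44) and Cyp2j6 (8.15 to 70.8 CPM, −2.22 ± 0.43). Cyp4a12a, Cyp4f13 and Cyp4b1 were not called. Cyp4b1, a lung enzyme that activates ipomeanol, ran from 6 to 236 CPM in organoids against 7.28 to 27.5 in liver, and its adjusted p of 0.28 became 0.033 with plain library totals. Cyp4a12a was 0.396 to 44.8 CPM, in libraries that all held both Xist and Ddx3y RNA.

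The 5 that rose in normal organoids were Cyp2s1, Cyp1b1, Cyp2d34, Cyp4f16 and Cyp4f17. Cyp2s1 stood at 14.1, 9.38, 16.3, 11.4, 10.8 and 15.2 CPM and rose by 5.49 ± 0.57 (edgeR quasi-likelihood, adjusted p = 9.2e-07). Cyp1b1 stood at 16.5, 62.2, 3.58, 56.6, 394 and 99.5 CPM, with replicate 3 within the range of liver and replicate 5 far above the rest, and rose by 4.92 ± 0.97. Cyp4f17 (11.8 to 20.3 against 2.67 to 5.99 CPM) and Cyp4f16 (14 to 34.3 against 1.35 to 6.65) did not overlap liver and rose by 1.20 ± 0.23 and 1.64 ± 0.34. All 7 hepatocyte, 5 fibroblast and 4 Kupffer cell markers were lower in organoids and all 5 biliary markers higher, with 2 of 3 intestinal epithelium markers higher and 1 lower and 1 of 2 neutrophil markers lower; their part in the result was not tested. Liver and organoids do not overlap in ribosomal-repeat share, so that share and the group cannot be told apart, and with it as a term 18 members fell and 0 rose, while Cyp1b1 turned to −0.50.

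LCS cancer lines differed from normal organoids in few members, with each line counted once (5 lines, n = 6 normal organoids). Of 27 members tested, 4 rose and 0 fell, where 3.24% of all genes were called higher and 1.86% lower, and the median change was 1.39 over members and 0.01 over all genes. At an unadjusted p under 0.05, 9 were higher and 1 lower, and DESeq2 called 8 higher. The 4 were Cyp2d9 (7.02 ± 1.05, edgeR quasi-likelihood, adjusted p = 0.0042), Cyp4f14, a leukotriene hydroxylase (6.73 ± 1.58), Cyp2d26 (5.71 ± 1.37) and Cyp2c68 (4.47 ± 0.92). They were carried by some lines more than others. Cyp4f14 had line means of 98.5, 59.83 and 29.37 CPM in LCS1, LCS2 and LCS3 and 0.1608 and 0.1627 in LCS4 and LCS5, where normal organoids held at most 1.51. Cyp2d26 followed the same lines, with means of 118.4, 26.77, 12.34, 0.3467 and 0.1535 CPM from LCS1 to LCS5. Leaving out LCS1, LCS2 or LCS3 left 2 members called, and leaving out LCS5 gave 8.

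Other members varied as widely between the LCS lines, and libraries of a line could differ as much. Cyp2d10 had line means of 412.9, 158.4, 69.44, 152.9 and 4.377 CPM from LCS1 to LCS5 and was not called at 7.01 CPM in normal organoids. Within LCS2 its libraries ran from 6.627 to 382.9 CPM, and those of LCS4 held 6.135, 16.73 and 435.9. Cyp2s1 ran from 109.3 CPM in LCS1 to 1.534 in LCS4, and Cyp4b1 from 198.9 in LCS1 to 15 in LCS5. Cyp1b1 had the opposite ends, at 1.829 CPM in LCS1 and 101.8 in LCS3. The 6 HBS lines gave 0 calls among 21 members tested in edgeR's quasi-likelihood test, where 0.00667% of all genes were called higher and 0.04% lower; 2 members, 1 in each direction, had an unadjusted p under 0.05, and DESeq2 also called 0. Their line means spread from 15.49 to 260.9 CPM for Cyp1b1 and from 2.112 to 290.7 for Cyp4a12a. HBS1_F2 organoids had 208.7 to 896.7 CPM of Cyp1b1, the highest group mean of the series. Fibroblast markers summed to 1.509 to 3015 CPM in these libraries, against at most 4.869, 7.107 and 4.349 in normal, LCS and HBS organoids. The part of these markers in the Cyp1b1 level was not tested. HBS1_F2 organoids held 178.3, 98.59 and 157.7 CPM of Cyp4f15 in 3 of 4 libraries and no count in the other, where HBS1 organoids averaged 0.09103.

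Set against the 5 LCS lines together, since the labels give no line for a tumour, LCS-driven primary tumours held more of most members and less of 8. Of 64 members tested, 38 were higher (59.4%) and 8 lower, where 30.7 and 29.9% of all genes were called, with medians of 4.16 over members and 0.05 over all genes. Cyp3a11 and Cyp2e1 were higher by 10.01 ± 1.72 and 8.44 ± 1.46, each with no overlap. All 7 pericentral and all 8 female-biased members were higher. Cyp4a12a (−7.40 ± 0.83), Cyp4b1 (−2.50 ± 0.56), Cyp4f17 (−1.94 ± 0.25) and Cyp4f13 (−1.04 ± 0.24) were lower in the tumours, as was Cyp2d22 (−1.28 ± 0.49), which was not called with plain library totals. All 7 hepatocyte, 5 fibroblast and 4 Kupffer cell markers, 4 of 5 neutrophil and 1 of 5 intestinal epithelium markers were higher in the tumours than in the lines, and of 5 biliary markers 1 was higher and 1 lower; their part in the result was not tested.

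LCS lung metastases had far lower levels of Cyp3a11, Cyp2e1 and most Cyp2c members than LCS-driven primaries, and higher levels of 5 members. Of 67 members tested, 32 fell (47.8%) and 5 rose, where 7.03% of all genes were called lower and 7.73% higher, and the median change was −1.93 over members and −0.02 over all genes. Cyp3a11 was 0.587, 0.188, 0, 0.0493 and 0.123 CPM in the 5 metastases, under every primary tumour at 9.35 to 3154, and fell by 11.89 ± 1.54 (edgeR quasi-likelihood, adjusted p = 0.00011). Cyp2e1, at 0.131 to 0.859 CPM, fell by 9.31 ± 1.28 with no overlap, and 6 of 7 pericentral members and all 8 female-biased members fell. The exception among the pericentral members was Cyp2a5, at 14.6 to 34.6 CPM, within the range of the primaries.

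The 5 that rose in lung metastases were Cyp2d12, Cyp2c65, Cyp4b1, Cyp4f18 and Cyp4f16. Cyp4b1 stood at 113, 76.5, 31, 97.8 and 50.8 CPM against 4.25 to 51.2 in primaries, and it rose from a mean of 24.1 to 73.8 (edgeR quasi-likelihood, adjusted p = 0.043). Cyp4f18 rose by 1.36 ± 0.26. Cyp4f14 was 232, 196, 289, 13.4 and 273 CPM, high in 4 libraries and low in replicate 4, which also had the lowest Cyp2d34 at 0.0985 against 52.3 to 123 in the others. In these 5 libraries lung epithelium markers summed to 1025 to 2434 CPM, against at most 1.516 in primaries, all 5 of them were higher, and 5 of 7 hepatocyte markers were lower, with Apoa2 under 1 CPM in every library. Of the other lists, 3 of 4 Kupffer cell and 2 of 5 fibroblast markers were lower and 1 of 5 intestinal epithelium markers higher. Their part in the result was not tested. With the block of library identifiers (their first 3 digits) as a term, 12 members fell and 0 rose, and leaving out 1 metastasis gave 25 to 32 lower and 2 to 5 higher, with 2 higher without replicate 5.

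LCS peritoneal metastases (n = 3) had 12 of 67 members lower and 0 higher, where 0.759 and 0.125% of all genes were called, with medians of −3.49 over members and −0.03 over all genes. At an unadjusted p under 0.05, 38 were lower and 1 higher, and DESeq2 called 33 lower. Cyp3a11 was 0, 0.16 and 0.284 CPM and fell by 11.74 ± 2.02 (edgeR quasi-likelihood, adjusted p = 0.019). Cyp3a25 and Cyp2c70, the muricholic acid enzyme whose promoter is printed above, fell by 9.04 ± 1.65 and 10.01 ± 1.87. Cyp2a12 had no count in any of the 3, which with 3 counts over the group makes it at least 1470-fold lower. Cyp1b1, at 76.7, 187 and 109 CPM against 11.7 to 101 in the primaries, was not called (1.84 ± 0.55, adjusted p = 0.15). Hepatocyte markers summed to 211.5 to 536.1 CPM in these libraries, 1 of 7 hepatocyte and 1 of 4 Kupffer cell markers were lower, and 2 of 5 neutrophil markers were higher; their part in the result was not tested. Leaving out any 1 of the 3 libraries, or adding the identifier block as a term, left 0 members called.

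PPTR metastases fell further below the PPTR primaries. Of 65 members tested, 36 fell (55.4%) and 3 rose, where 16.3% of all genes were called lower and 15.5% higher, with medians of −2.08 over members and −0.02 over all genes. Cyp1a2 was 0.139, 0.338, 0.316, 0.15 and 0.271 CPM, under every primary at 3.51 to 111, and fell by 7.56 ± 1.04 (edgeR quasi-likelihood, adjusted p = 4.6e-05). Cyp2b9 fell by 8.37 ± 1.64, Cyp2a4 by 6.01 ± 1.38, Cyp3a11 by 3.75 ± 0.80 and Cyp2f2 by 3.10 ± 0.79. Of the 4 PPARA-induced Cyp4a members all fell, Cyp4a10 by 6.35 ± 1.04. Cyp2e1, at 1.99, 1.05, 1.63, 0.939 and 200 CPM, was high in the intrahepatic library alone and was not called. Cyp2a5 stayed high in most, at 21.6, 746, 225, 3623 and 774 CPM.

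Cyp1b1 rose by 3.53 ± 0.46 in PPTR metastases, with 142, 126, 106, 64.4 and 102 CPM above every primary at 0.797 to 18.9, and Cyp4f18 and the low Cyp4f40 completed the 3. The lung metastasis, replicate 2, stood out for Cyp4b1 (60.2 CPM against 0.526 to 1.79) and held 2223 CPM of lung epithelium markers. In the 5 metastases all 5 biliary and 3 of 5 fibroblast markers were higher, as was the 1 lung epithelium marker tested, and 3 of 7 hepatocyte, 3 of 4 Kupffer cell and 1 of 3 intestinal epithelium markers lower; their part in the result was not tested.

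**Figure D5:**
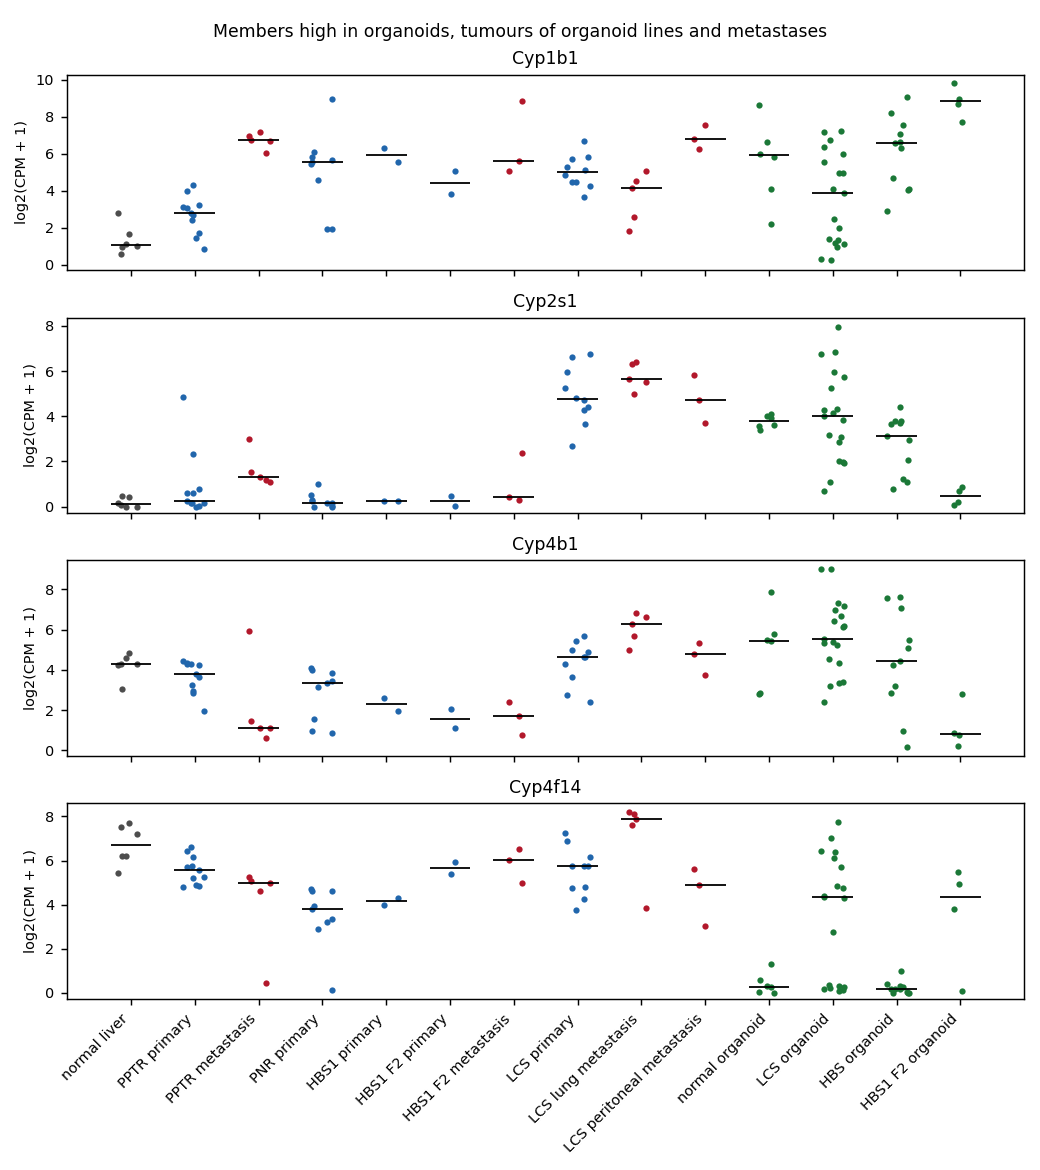
Level of Cyp1b1, Cyp2s1, Cyp4b1 and Cyp4f14, as log2(CPM + 1), in each library of the 14 groups, with a line at the group median. Cyp1b1 is higher in PPTR metastases (64.4 to 142 CPM) than in PPTR primaries (0.797 to 18.9), and Cyp4b1 is at 31 to 113 CPM in LCS lung metastases.

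The receptors, partners and electron donors of the P450s were counted from lists chosen with earlier results of these data known. Of 14 P450 regulators, 4 fell and 0 rose in PPTR, 4 fell and 2 rose in PNR and 12 fell and 0 rose in LCS-driven primaries against liver, and 10 fell and 2 rose in normal organoids. Of all genes tested, 13.8% were called lower and 17.3% higher in PPTR tumours, and 21.3 and 26.4% in PNR tumours. The shares were 28.3 and 35.1% in LCS-driven primaries and 36 and 38.1% in normal organoids. CAR (Nr1i3) was lower in each, with changes of −3.20 ± 0.61 in PPTR (19.27 against 130.2 mean CPM), −2.71 ± 0.91 in PNR, −3.75 ± 0.65 in LCS-driven primaries and −9.48 ± 0.69 in organoids. Hnf4a fell by 1.66 ± 0.23 in LCS-driven primaries and 2.78 ± 0.22 in organoids, and PXR (Nr1i2) by 7.70 ± 0.44 in organoids. Ahr itself fell by 0.87 ± 0.29 in PPTR tumours and rose by 1.73 ± 0.47 in PNR tumours and by 1.83 ± 0.39 in organoids. Of 3 AHR targets outside the set, Nqo1 rose in PPTR tumours (2.14 ± 0.58), Tiparp in LCS-driven primaries (1.82 ± 0.28), and Tiparp and Ahrr in organoids, where Nqo1 fell by 3.65 ± 0.47.

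The 3 electron donor and haem supply genes in the files (Por, Cyb5r3 and Alas1) all fell in LCS-driven primaries and in organoids. In PNR tumours Alas1, the first enzyme of haem synthesis, fell by 1.79 ± 0.35 alone among them, and in PPTR tumours Cyb5r3 rose by 0.75 ± 0.24.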

How the data were processed

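The deposited files hold counts, that is, whole numbers of reads per gene symbol and library. The authors used BWA, STAR and HTSeq with mm9 per the submitters' processing notes, and their versions, settings and annotation were not given in the sources at hand. The 5 HTSeq entries that name no gene were left out of totals and tests, and the entry for reads not uniquely placed was 0 in all 96 libraries, so reads of near-identical members may have been dropped or split. CPM divides a count by the library's gene total. Exon lengths came from GENCODE on GRCm38 and promoters from RefSeq on GRCm38.p6; neither build is that of the counts.

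The 12 comparisons were fitted with edgeR 4.0.16 (R 4.3.3), each on its own groups except that LCS lung and peritoneal metastases shared a fit with the primaries: filterByExpr (minimum count 10, total 15, large group 10, proportion 0.7), TMM, quasi-likelihood test, Benjamini-Hochberg adjustment over all genes tested, threshold 0.05. In comparisons with LCS or HBS organoids, counts of a line were summed. The fit was tested on simulated counts: for PPTR against liver it recovered 90.7% of genes changed by log2 2 and 53.5% of those changed by log2 1, for LCS lines 67.3 and 6%, and for LCS peritoneal metastases 58 and 18.4%.

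Members and lists were chosen with earlier results of these data known. Named are 24 members followed throughout, the called members of at least 5 CPM with the 6 largest changes in each direction, the top member of a subfamily, and up to 3 called examples of a list; others were named after their values were seen. Alternatives were DESeq2 1.42.0, RLE factors, no filter, the ribosomal-repeat share (7 features), the presence of Ddx3y RNA or the identifier block as a term, libraries of a single identifier block, totals without ribosomal repeats, matching PNR libraries summed, 2 PPTR primaries coded M1 left out, organoid libraries kept apart, and each library left out of groups of 2 to 5. Plain library totals and leaving out PPTR primary replicate 9, which held both Xist and Ddx3y RNA, were added after seeing the data. Results for a list of PPARA targets outside the set are not reported here.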

Additional observations from a re-analysis of the deposited data

Results flagged for a closer look

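In 124 tests of a group of 4 to 10 libraries for 1 that stands apart (Dixon's test), 7 did, where chance gives about 1 in 20. The intrahepatic PPTR metastasis (replicate 5) had 200 CPM of Cyp2e1 where the other 4 had 0.939 to 1.98. The lung PPTR metastasis (replicate 2) had 60.2 CPM of Cyp4b1 against 0.526 to 1.79. PPTR metastasis replicate 1 had 9.97 CPM of Cyp4f13 against 21.8 to 26.3. HBS1_F2 organoid replicate 4 had 25.6 CPM of Cyp2f2 against 0 to 0.271. PNR primary replicate 8 had 15.2 CPM of Cyp3a13 against 66.3 to 176. Normal liver replicate 5 had 7.28 CPM of Cyp4b1 against 18 to 27.5. LCS lung metastasis replicate 4 had a summed Cyp4 level of 249 CPM against 447 to 533.

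Cyp4f15 moved in opposite directions against liver in the PPTR (−2.22) and PNR tumours (0.95), and the direct comparison of the tumours gave −3.17 (edgeR quasi-likelihood, adjusted p = 1.60e-07).

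In libraries outside the tested comparisons, Cyp1b1 was above the highest normal liver (5.93 CPM) in HBS1-driven primaries (mean 62.8, 46.8 to 78.8 CPM), HBS1_F2-driven primaries (22.9, 13.1 to 32.7) and HBS1_F2-driven metastases (178, 32.8 to 454). Cyp2c55 averaged 37 CPM (29.5 to 44.4) in HBS1_F2-driven primaries, above the highest liver at 14.7.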

How the results depend on the processing

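Counts of members called (higher, lower) moved by over 1.5 times as follows; the cause was not tested. With the ribosomal-repeat share as a term, 15 fell in PPTR tumours against liver (25 without it), 0 rose and 0 fell in PNR tumours (4 and 26), 3 fell in LCS-driven primaries (49), and 0 rose and 18 fell in normal organoids (5 and 45). With plain library totals 7 rose in PPTR tumours (2) and 10 were higher in LCS-driven than in PPTR tumours (6). DESeq2 called 5 higher in PPTR tumours (2), 8 higher in LCS lines (4) and 33 lower in LCS peritoneal metastases (12). Without a filter, 7 were higher in LCS lines and 5 in PPTR metastases (3), and with each organoid library as a replicate 7 were higher in LCS lines and 1 in HBS lines (0). With the identifier block as a term, 0 rose and 12 fell in LCS lung metastases (5 and 32) and 0 fell in peritoneal metastases (12). Leaving out 1 library or line at a time gave 2 to 8 higher in LCS lines, 37 to 39 higher and 6 to 9 lower in LCS-driven tumours against lines, 2 to 5 higher and 25 to 32 lower in LCS lung metastases, 0 lower in peritoneal metastases and 2 to 3 higher and 28 to 35 lower in PPTR metastases. With TMM over all 96 libraries the summed level was 28470 CPM in liver (16890) and 2751 in HBS1_F2-driven primaries (2405).

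Of 2624 recomputed changes of named members, 2399 gave the same call and direction, 160 were no longer called, 57 became called and 8 changed sign. The last were, with the ribosomal-repeat share, Cyp1b1 (−9.82) and Cyp2a4 (7.86) in PNR tumours and Cyp1b1 (−0.50), Cyp3a41a (5.75), Cyp4f16 (−0.12) and Cyp4f17 (−0.42) in normal organoids, and, with Ddx3y RNA as a term, Cyp2c55 (0.45) and Cyp4a12a (0.82) in LCS-driven primaries. No paired analysis was possible because the labels give no replicate numbers. Depth limits members under about 1 CPM, where a library holds few counts.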
